A study of Mus musculus with 8 samples.

Results

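Ileal-type enterocytes high in Fabp6 were examined among EpCAM+ cells sorted from small intestinal crypts of adult mice and measured by droplet-based single-cell RNA sequencing. The cells were selected on their measured values. A cell barcode was kept with at least 1500 unique molecular identifiers (UMIs, tags that count captured transcripts once each), 200 or more genes detected and no more than 30% mitochondrial UMIs. A kept barcode was called ileal-type when Defa defensin genes made up under 20% of its UMIs, 7 absorptive genes (Fabp1, Fabp2, Apoa1, Apoa4, Apoc3, Rbp2 and Sis) at least 3%, Fabp6 at least 1% and 4 villus-tip genes (Ada, Slc28a2, Clca4a and 2010109I03Rik) under 0.2%. This gave 165 cells, 12 from WT and 153 from KO, among 16469 kept barcodes and 28750 barcodes in all.

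KO mice carried a homozygous deletion of ieCtnnb1, an intestinal enhancer upstream of Ctnnb1, the gene of β-catenin. According to the study's methods the WT matrix came from H11 i.enh mice, which carry a reporter of that enhancer at the H11 locus, so the controls carry a transgene, and whether KO mice carried it too was not given in the sources used here. The labels list 4 samples per group, but cells of several female mice were pooled for each genotype and deposited as 1 matrix with no map from cells to mice. No test between WT and KO was therefore possible. Every interval below is a 95% interval that covers counting error only. Kept barcodes held 128840195 UMIs in WT and 115022009 in KO. The matrices shared 57 barcodes, of which 1 was an ileal-type cell.

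Enterocytes of the ileum, the distal small intestine, reclaim bile acids from the gut lumen. Slc10a2 takes them up across the brush border, Fabp6 binds them in the cytosol, and the paired subunits Slc51a and Slc51b export them at the basal side. Bile acids activate the nuclear receptor FXR, the product of Nr1h4, which with its partner RXR switches on Fabp6, Slc51a, Slc51b and Fgf15, the gene of a hormone that lowers bile acid synthesis in the liver.

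The promoter of Fabp6 is shown because that gene chose the cells, and a stretch before the RefSeq start of Slc51b because it holds the same kind of repeat. Fabp6 lies on the minus strand of chr11:43596049-43601540 (build GRCm38). The site at which FXR and RXR bind was searched for as an inverted repeat with 1 base between its arms, in the letters GGTNANTNACC, which read alike on both strands. The 250 bases before the RefSeq start of Fabp6 (GRCm38.p6, minus strand, chr11:43601563-43601812) held 2 matches, in capitals, at 211 to 221 and at 131 to 141 bases before the start. The match before the RefSeq start of Slc51b lay 176 to 186 bases from it and is shown with its flanks (minus strand, chr9:65422940-65422968). As GENCODE annotates the gene, it reaches to 65422955, so part of the match and 1 flank lie inside it.
Fabp6 upstream: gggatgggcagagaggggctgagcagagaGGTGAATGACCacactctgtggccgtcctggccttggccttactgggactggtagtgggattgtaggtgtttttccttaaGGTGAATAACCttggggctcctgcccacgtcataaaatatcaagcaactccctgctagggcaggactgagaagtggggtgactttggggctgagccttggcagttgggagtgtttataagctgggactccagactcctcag
Slc51b match: cattcgtggGGTCATTCACCctggactgg
The pattern occurred in 72 of 32851 RefSeq windows of this length (0.219%), and in 3 of 21 windows of the bile acid genes listed for the analysis, the third before an inner start of Hnf4a. The windows of Slc10a2, Slc51a and Nr1h4 did not hold these letters. A match is a description of letters and not a measured binding site.

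The class was 23.0 times as large a share of kept barcodes in KO as in WT (12.8 to 45.4). It made up 0.113% of 10588 WT barcodes (0.0586 to 0.198%) and 2.60% of 5881 KO barcodes (2.21 to 3.04%). Among enterocyte-rich barcodes, those that pass the absorptive minimum, it held 1.48% of 811 in WT (0.767 to 2.57%) and 17.7% of 863 in KO (15.2 to 20.4%), 12 times as much (6.66 to 23.7). The excess in KO was not particular to the class: villus-tip-like enterocytes, which pass the absorptive minimum but have at least 0.2% of villus-tip UMIs, numbered 3 in WT and 80 in KO, 48.0 times as large a share of kept barcodes (15.8 to 238) and 25.1 times of enterocyte-rich ones (8.27 to 124). The other mature enterocytes, which meet the rule except that Fabp6 is under 1%, numbered 796 in WT and 630 in KO, 1.42 times as large a share of kept barcodes (1.28 to 1.58). Genotype cannot be told apart here from the mice, the preparation or the library.

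High Fabp6 was not limited to the class. At least 1% of UMIs came from Fabp6 in 211 WT and 506 KO kept barcodes, 1.99% and 8.60%, a ratio of 4.32 (3.67 to 5.09). Of these, 190 WT and 310 KO barcodes missed only the absorptive minimum. The KO to WT ratio moved with that limit. With both classes together as the denominator, 5.94% of 202 WT barcodes (3.11 to 10.1%) and 33.0% of 463 KO barcodes (28.8 to 37.5%) passed it. With a minimum of 1%, an alternative chosen after seeing the data, the class held 41 WT and 251 KO cells.

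**Figure D1:**
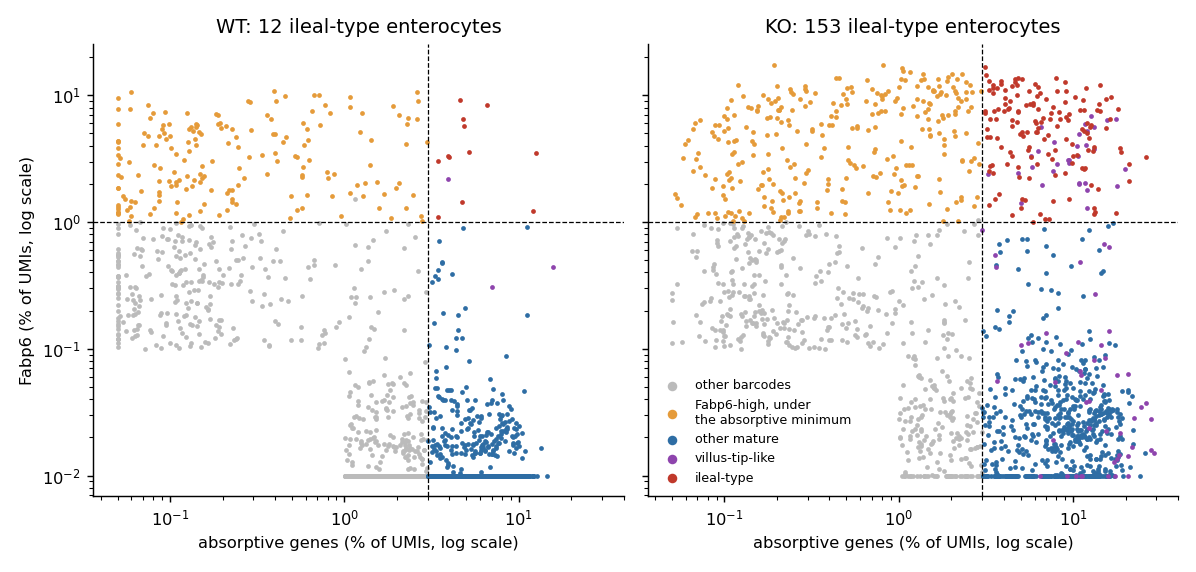
Share of UMIs from the 7 absorptive genes (horizontal, percent, log scale) and from Fabp6 (vertical, percent, log scale) in single barcodes of WT and KO; each point is a barcode, colours mark the classes and dashed lines the limits of 3% and 1%. Barcodes low in both measures are not drawn, and values under an axis sit at its lower edge. The 12 WT and 153 KO ileal-type enterocytes lie above and to the right of both limits, and 190 WT and 310 KO barcodes lie above the Fabp6 limit but left of the absorptive one.

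The limits cut continuous values. The mature enterocytes nearest to the Fabp6 limit had 0.920% outside and 1.09% inside in WT, and 0.991% and 1.01% in KO. At the absorptive limit the nearest barcodes high in Fabp6 had 2.99% and 3.43% in WT, and 2.95% and 3.12% in KO. Few cells stood near the Fabp6 limit and more near the absorptive one: 14 other mature KO enterocytes had 0.5% to 1% of Fabp6 and 19 KO members 1% to 2%, while 35 KO barcodes had 2% to 3% of absorptive UMIs and 28 KO members 3% to 4%. A member's share of Fabp6 ranged from 1.09% to 9.21% in WT (median 3.42%) and from 1.01% to 16.6% in KO (median 5.84%).

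Members had a median depth of 3627 UMIs in WT and 7664 in KO, and median mitochondrial shares of 8.45% and 6.83%. Below, levels are counts per 1000000 (CPM) of the UMIs summed over a class, 54680 in WT members and 1129019 in KO members. A count of 3 UMIs, taken as the floor, equals 54.9 CPM in WT members and 2.66 CPM in KO members, so low genes were measured far better in KO. Because the rule chose these cells by expression, differences from other classes are given as descriptions, without a test.

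Among the genes of the rule, members ran on Fabp2 and Apoa1 more than on Fabp1. Fabp2, the intestinal fatty acid carrier, and Apoa1, an apolipoprotein, together gave 85.0% of the absorptive UMIs in WT members and 94.5% in KO members, against 36.2% and 55.5% in other mature enterocytes. High shares were not particular to members. Villus-tip-like enterocytes had 89.6% in WT, from 3 cells, and 83.7% in KO. Barcodes high in Fabp6 but under the absorptive minimum had 69.0% and 84.6%. Fabp1, the liver-type carrier, stood at 3347 CPM in WT members (lowest 0, median 468, highest 10945 over cells) and 738 in KO members (lowest 0, median 150.2, highest 12167). The other mature enterocytes had 19647 and 19095 CPM of it, and tuft-like barcodes, which should lack it, 1205 and 2028 CPM. The median member thus held less Fabp1 than those tuft-like barcodes as a whole. Rbp2, a retinol carrier, stood at 2853 and 1813 CPM in WT and KO members against 12015 and 14171, and Apoa4, another apolipoprotein, at 622 and 129 against 2917 and 3055.

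Enterocyte markers outside the rule were present in members and summed higher than in tuft-like barcodes. The 9 enterocyte markers that the rule did not use summed to 9181 CPM in WT members and 6572 in KO members, all 9 with a UMI in both, against 6849 and 5040.0 in other mature enterocytes and 782 and 588 in 82 WT and 44 KO tuft-like barcodes. Of other cell types, the 9 stromal and blood markers were all at 0 in both matrices. Immune markers summed to 36.6 CPM in WT (8 of 10 at 0) and 4.43 in KO (6 of 10 at 0), tuft markers to 36.6 (8 of 10 at 0) and 17.7 (2 of 10), and enteroendocrine markers to 109.7 (9 of 11) and 197 (2 of 11). Stem and progenitor markers summed to 256 and 188 CPM, and Lgr5, the crypt stem cell marker, had a UMI in 0 of 12 WT cells, which allows a share of cells with a UMI, not of cells expressing it, of up to 25%, and in 1 of 153 KO cells. Paneth markers summed to 9619.6 and 6441 CPM, beside 10936 and 6164 in tuft-like barcodes. In members they were thus near the enterocyte markers in size, and near their own level in tuft-like barcodes.

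Goblet markers were raised in a few KO members. Their sum was 3822 CPM in WT members and 8063 in KO members, beside 13502 and 5278 in tuft-like barcodes. The median member had 0.420% of goblet UMIs in WT and 0.230% in KO, but the highest KO cell had 29.7%. Without the 4 KO members at 2% or more, Zg16, a lectin of goblet granules, went from 3941 to 489 CPM in KO, beside 549 in WT. This alternative was chosen after seeing the data, and whether the 4 barcodes held 2 cells each was not tested.

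Bile acid uptake set the members apart from other mature enterocytes. Slc10a2, the uptake transporter (minus strand, chr8:5083219-5105351), stood at 293 CPM in WT members from 16 UMIs (167 to 475) and 589.9 CPM in KO members (546 to 636). Over single cells it ranged widely (lowest 0, median 93.2, highest 2025 CPM in WT, lowest 0, median 514, highest 3369 in KO). Other mature enterocytes had 0.929 and 10.2 CPM, which gave a log2 ratio of 5.86 in KO (5.48 to 6.26). A UMI of Slc10a2 was found in 6 of 12 WT and 120 of 153 KO members, and in 5.40% of other mature KO enterocytes and 2.27% of KO tuft-like barcodes, with median depths of 9486 and 7148 UMIs. Thinned to 1500 UMIs a cell, the shares were 49.7% of KO members (41.5 to 57.9%) and 0.952% of other mature KO enterocytes.

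The basal exporter was graded between the classes. Slc51a (minus strand, chr16:32474504-32487879) stood at 841 CPM in WT members (616 to 1122) and 1731 in KO members (1655 to 1809), against 241 and 449 in other mature enterocytes, log2 ratios of 1.81 (1.35 to 2.23) and 1.95 (1.86 to 2.03). Its partner Slc51b (minus strand, chr9:65412714-65422955) stood at 933 CPM (694 to 1226) and 1776 CPM (1699 to 1855) against 189 and 412, log2 ratios of 2.30 and 2.11. Mature enterocytes with almost no Fabp6 thus kept both subunits, above the 28.6 and 70.8 CPM of Slc51a and 6.14 and 17.1 CPM of Slc51b in tuft-like barcodes.

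The hormone gene Fgf15 (plus strand, chr7:144896531-144900953) was scarce in every class and reached a higher level in members than in other mature enterocytes. It stood at 73.2 CPM in WT members from 4 UMIs (19.9 to 187) and 69.1 CPM in KO members (54.6 to 86.2), against 1.86 and 4.34 in the others, a KO log2 ratio of 3.99 (3.33 to 4.69). It had a UMI in 2 of 12 WT and 47 of 153 KO members, in 5 of 796 and 20 of 630 other mature enterocytes, and in no tuft-like barcode. Nr1h4, the gene of FXR, stood at 54.9 CPM from 3 UMIs in WT members (11.3 to 160.3) and 63.8 in KO members (49.9 to 80.3), against 37.9 and 27.2.

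Of 17 listed bile acid genes outside the rule, 14 had the 50 UMIs needed to be compared in KO. In KO 5 were at least 2-fold higher in members (Slc10a2, Slc51a, Slc51b, Fgf15 and Nr1h4), where 4.07% of 6586 genes were, and 1 was at least 2-fold lower, where 8.85% were. The lower gene was Abcc3, a basolateral exporter, with 36.6 and 3.54 CPM in members and 36.7 and 15.9 in the others. The list's median log2 ratio was 0.45 and that of all genes -0.12. In WT both medians were 0, a value also given where the floor turned a gene's direction. There 5 of 12 listed genes were above 0 and 4 below, and 1215 of all 6179 genes lacked a UMI in 1 class. All genes with a UMI in both classes had a WT median of 0.08. In both matrices 2 of 12 bile acid genes were at least 2-fold higher, Slc51a and Slc51b, where 1.73% of all genes were, and none lower. Abcg5 and Abcg8, which form the sterol exporter of the brush border, hardly differed in KO, at 103 and 83.3 CPM against 109 and 71.5. Abcb11 and Gpbar1 had no UMI in members of either matrix.

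**Figure D2:**
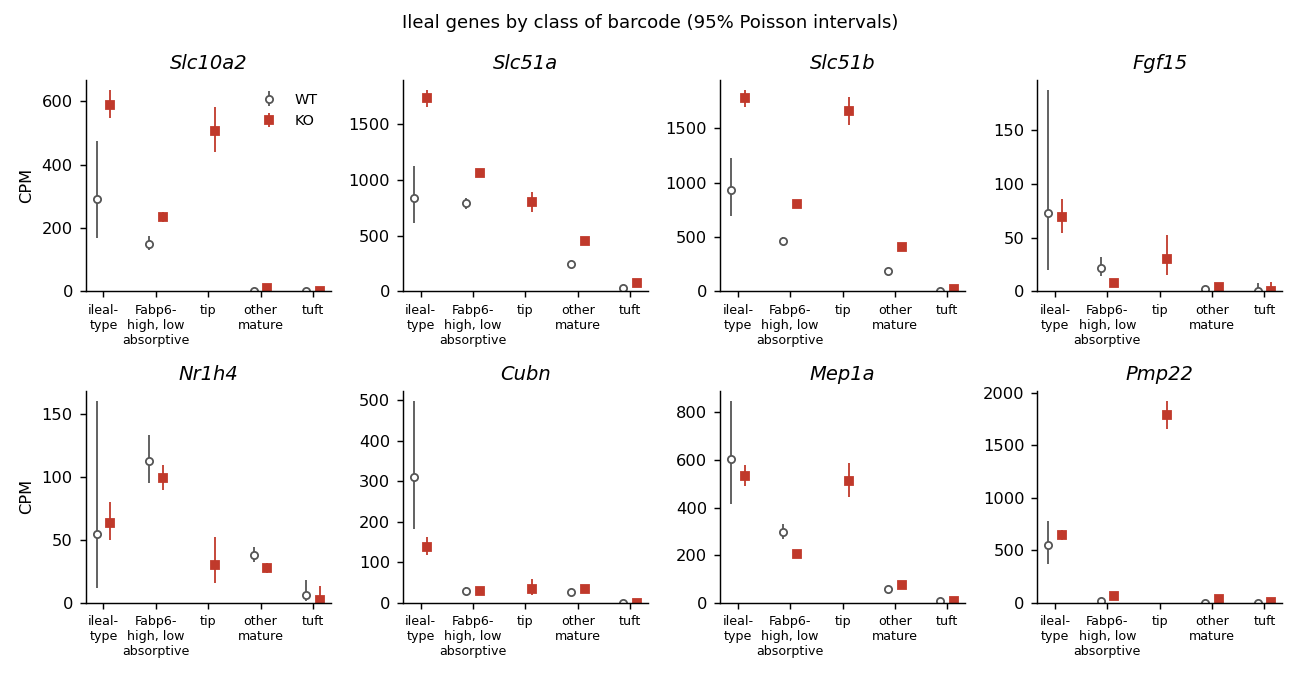
Level in CPM (vertical, from 0) of 8 ileal genes in each class of barcode in WT (open circles) and KO (filled squares), with 95% Poisson intervals from counts; the 3 WT villus-tip-like barcodes are left out. Slc10a2 stands at 293 and 589.9 CPM in WT and KO ileal-type enterocytes and near 0 in other mature enterocytes, where Slc51a and Slc51b keep 189 to 449 CPM.

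Genes of the distal intestine were higher as a group in members than in other mature enterocytes. The lists below share some genes with one another. All 32 of the list were above 0 on the log2 scale in KO, 23 of them at least 2-fold higher in members, with a median of 1.57. In both matrices, 17 of 28 were at least 2-fold higher in members, where 1.73% of 5884 genes were, and none at least 2-fold lower, where 2.06% were. Pmp22, a tetraspan membrane protein, stood at 549 and 643 CPM in WT and KO members against 1.39 and 37.1, and Slc34a2, a phosphate transporter, at 457 and 441 against 23.0 and 89.5. Cubn, which with Amn takes up vitamin B12 bound to intrinsic factor, stood at 311 and 138 CPM against 25.3 and 33.6, while Amn differed less, at 219 and 391 against 100.3 and 224. Slc13a1, a sulfate transporter, stood at 311 and 486 CPM against 158 and 52.6.

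Brush border peptidases and lipases were part of that difference. Of 17 digestive enzymes compared in KO, 6 were at least 2-fold higher in members, where 4.07% of all genes were, and 3 lower, where 8.85% were. Mep1a, a subunit of the protease meprin, stood at 604 and 533 CPM against 55.7 and 73.2 (log2 ratios 3.44 and 2.87), and Plb1, a phospholipase, at 347 and 176 against 8.59 and 62.0. The peptidases Naaladl1, Xpnpep2, Dpep1 and Enpep made up the rest of the 6. Lower were lactase Lct (238 and 64.7 CPM against 358 and 304) and the peptidases Ace and Mme. Structural genes of the brush border moved mildly, with 18 of 20 above 0 in both matrices but 2 at least 2-fold higher in both, Espn and the mucin Muc3. Of all genes 1.73% were at least 2-fold higher in both.

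Across all genes, the rule for naming genes took the 12 with the largest ratio in each direction shared by both matrices, among genes with at least 50 UMIs over both classes in each. Slc10a2 and Saa1, with larger KO ratios (5.86 and 5.76), fell under that minimum in WT. Higher in members were Tmigd1, Mep1a, Mgat4c, Sprr2a3, Slc34a2, Naaladl1, Upp1, Slc51b, Cubn, Xpnpep2, Slc5a8 and Slc51a. Tmigd1, a membrane protein with immunoglobulin domains and in none of the lists, stood first among these at 1116 CPM in WT members (lowest 0, median 833, highest 3543 over cells) and 2724 in KO members (lowest 0, median 2277, highest 8756), against 10.2 and 102 in the others. Its log2 ratios were 6.77 (6.19 to 7.36) and 4.74 (4.61 to 4.86). Upp1, a uridine phosphorylase, stood at 951 and 1713 CPM against 183 and 366, and Slc5a8, a monocarboxylate transporter, at 439 and 126 against 15.6 and 33.7.

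Lower in members were Reg1, Gsta1, 2210407C18Rik, Ckb, Dhrs1, Cyp2b10, Slc2a2, Gsta4, Gstm3, Gstm1, Chpt1 and Aadac. Reg1, a secreted lectin, had no UMI in WT members and 46.1 CPM in KO members against 5530.5 and 2628, a KO log2 ratio of -5.83 and, with WT members set at the floor of 3 UMIs over the group, a WT ratio of -6.66 or lower. Gsta1, a glutathione transferase, stood at 91.4 and 125 CPM against 1859 and 1462, and Slc2a2, the basal sugar transporter, at 54.9 and 23.0 against 286 and 186. Of the 12, 10 rested on 3 UMIs or fewer in WT members, whose levels are therefore rough. Gsta1 among the lower and Sprr2a3 among the higher genes have near-identical copies, so their counts are uncertain.

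Genes of the proximal intestine were lower as a group in members than in other mature enterocytes. In KO 20 of 33 were at least 2-fold lower in members, where 8.85% of all genes were, and 1 higher, with a median of -1.14. In both matrices 13 of 33 were at least 2-fold lower, where 2.06% of all genes were, and none higher. Adh6a, an alcohol dehydrogenase, stood at 293 and 101 CPM in members against 1123 and 925, and Fth1, a ferritin subunit, at 3018 and 4189 against 12810.0 and 8754. The exception in KO was S100g, a calcium-binding protein, at 54.9 and 172 CPM against 577 and 85.0, which was lower in WT members and higher in KO members. Gata4, a factor of the proximal intestine, was low throughout, at 54.9 and 11.5 CPM (3 UMIs in WT) against 43.2 and 23.2.

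Drug-metabolising genes followed the same direction. Of 26 compared in KO, 11 were at least 2-fold lower in members, where 8.85% of all genes were, and 2 were higher, where 4.07% were. Among the lower were P450 enzymes, 4 glutathione transferases and the receptor gene Nr1i3. The 2 higher were the exporters Abcb1a (165 and 151 CPM against 65.5 and 19.2) and Abcg2 (293 and 619 against 223 and 215), the latter 2-fold apart in KO but not in WT.

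**Figure D3:**
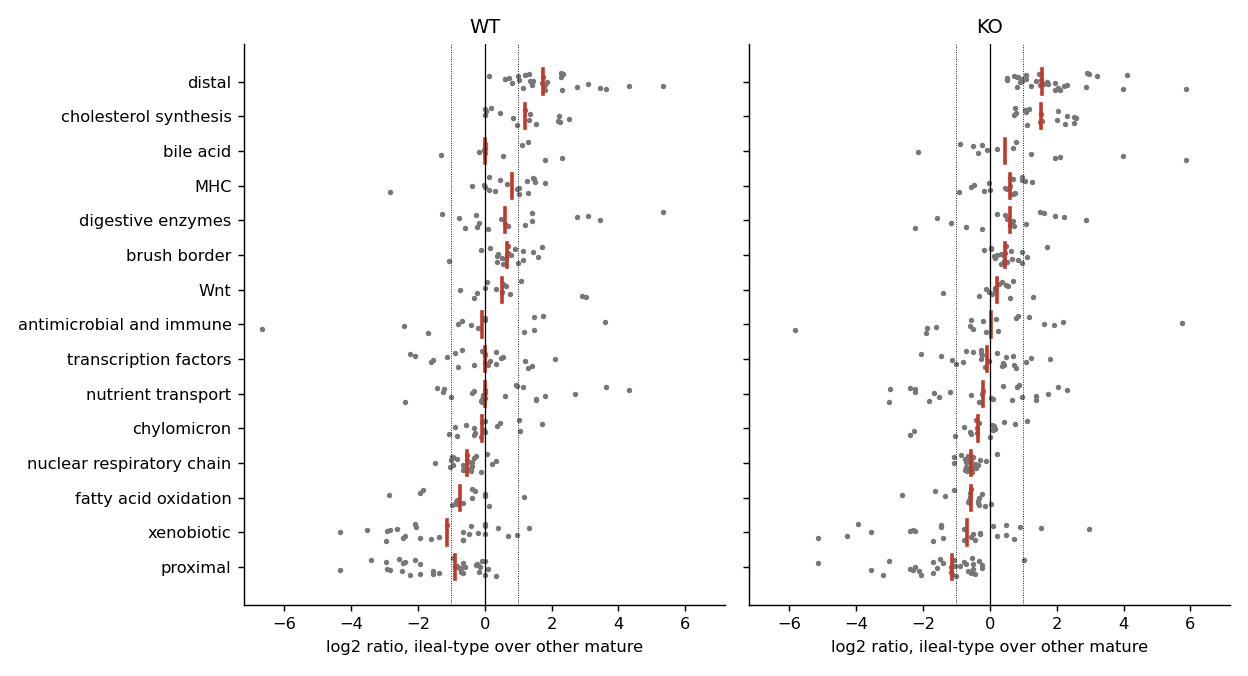
Log2 ratio of ileal-type over other mature enterocytes (horizontal) for the genes of 15 lists in WT and KO, without the genes of the rule; each point is a gene with at least 50 UMIs, bars are list medians and dotted lines mark 2-fold. Distal genes (medians 1.74 in WT and 1.57 in KO) and cholesterol synthesis genes (1.19 and 1.52) lie to the right, proximal genes (-0.89 and -1.14) to the left.

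Nutrient transporters divided into those higher and those lower in members. In both matrices 5 of 23 were at least 2-fold higher (Slc6a19, Slc3a1, Slc1a1, Slc34a2 and Cubn), where 1.73% of all genes were. Another 5 were lower (Slc2a2, Slc7a8, Slc36a1, Slc46a1 and Slc28a1), where 2.06% of all genes were. Slc1a1, a glutamate transporter, stood at 91.4 and 48.7 CPM in WT and KO members against 14.2 and 14.5, and Slc6a19, a carrier of neutral amino acids, at 311 and 343 against 107 and 131. Slc46a1, the folate carrier, stood at 18.3 and 2.66 CPM (1 UMI in WT) against 42.7 and 20.9.

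Of 15 ion transport genes compared in both matrices, 1 was at least 2-fold higher in both, where 1.73% of all genes were, and none lower. It was Guca2a, the gene of guanylin, a peptide that regulates salt and water secretion, at 1389.9 and 1626 CPM in members against 254 and 658. Of 11 genes of the lower villus compared in KO, 8 were below 0, where 41.4% of all genes were above 0. At least 2-fold lower were 3 of them (Reg1, Nlrp6 and Il18), where 8.85% of all genes were, and none was higher. Genes of the middle villus had 3 of 11 at least 2-fold higher in KO (Slc34a2, Slc3a1 and Fgf15), where 4.07% of all genes were. In KO 1 of the 11 was lower (Slc2a2), a share near the 8.85% of all genes. None of 10 immediate early genes was at least 2-fold apart in KO.

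Cholesterol synthesis genes were higher in members. In KO 14 of 17 were at least 2-fold higher, where 4.07% of all genes were, and none lower, with a median of 1.52. In both matrices 8 of 14 were at least 2-fold higher, where 1.73% of all genes were. Hmgcs1, an early enzyme of the pathway, stood at 146 and 153 CPM in members (8 UMIs in WT) against 50.9 and 32.2, and Fdft1, which makes squalene, at 73.2 and 113 (4 UMIs) against 12.8 and 19.0. Tuft-like barcodes held 176 and 70.8 CPM of Hmgcs1 and 53.2 and 65.9 of Fdft1, so these levels were not peculiar to members among all cells.

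Most fat burning and respiration genes were below 0 in KO, where 41.4% of all genes were above 0. Of 16 fatty acid oxidation genes compared in KO, 4 were at least 2-fold lower and 15 were below 0, with a median of -0.58. Nuclear respiratory chain genes were below 0 for 24 of 25, with a median of -0.57, but the 2 at least 2-fold lower are a share near the 8.85% of all genes. Chylomicron genes outside the rule had no common direction, and none of 17 was at least 2-fold apart in both matrices.

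Of 17 MHC genes, which serve in presenting antigen, 2 were at least 2-fold higher in KO members (H2-Aa and H2-Ab1) and none lower, with 12 above 0 and 5 below. Of all genes in this comparison 4.07% were at least 2-fold higher and 41.4% above 0. H2-Aa, a class II chain, stood at 1298 and 1821 CPM in members against 372 and 764, H2-Ab1 at 1353 and 1562 against 478 and 751, and their chaperone Cd74 at 3310.2 and 4631 against 1211 and 2358. Antimicrobial genes were mixed, with 5 of 18 at least 2-fold higher and 4 lower in KO, where 4.07% and 8.85% of all genes were. Saa1, an acute-phase protein whose reads are hard to part from those of its close copy Saa2, stood at 165 and 641 CPM against 0.929 and 11.9, with 55.8% of the cells' summed level in 1 WT cell. Reg3b, a lectin that binds bacteria, stood at 16057 and 30772 CPM against 7102 and 33121, higher in WT members and near level in KO.

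Transcription factors differed in both directions. Of 24 compared in KO, 3 were at least 2-fold higher in members (Maf, Klf4 and Nr1h4), where 4.07% of all genes were, and 4 lower (Gata4, Creb3l3, Nr1i3 and Onecut2), where 8.85% were. Maf stood at 841 and 427 CPM against 363 and 202, and Klf4 at 256 and 194 against 59.2 and 56.0. Of 14 Wnt genes compared in KO, 1 was at least 2-fold higher in members and 1 lower, counts near the 4.07% and 8.85% of all genes. The higher was Axin2, a target and brake of the pathway (128 and 16.8 CPM, 7 UMIs in WT, against 15.8 and 6.85), and the lower was Sox9. Ctnnb1, whose enhancer was deleted, stood at 165 CPM in WT members from 9 UMIs (75.3 to 312) and 166 in KO members (143 to 191), a KO over WT log2 ratio of 0.01 (-0.95 to 1.16). A change within that interval was not detectable with 9 WT UMIs, and other mature enterocytes had 204 and 109 CPM. Most genes were lower in KO in that class, with a median log2 ratio of -0.33 over all 7778 genes compared. Whether the difference was particular to Ctnnb1 was not tested.

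Against the 310 KO barcodes as high in Fabp6 but under the absorptive minimum, members held more mature enterocyte transcripts and fewer goblet and stem ones. Of 6031 genes compared, 6.91% were at least 2-fold higher in members and 17.9% lower. At least 2-fold higher were 9 of 9 enterocyte markers outside the rule, 16 of 17 digestive enzymes, 24 of 32 distal and 22 of 31 proximal genes, and at least 2-fold lower were 9 of 9 goblet and 6 of 10 stem and progenitor markers. Other secretory markers did not follow the goblet ones: 0 of 7 Paneth markers were at least 2-fold apart, and of 2 enteroendocrine markers compared 1 was at least 2-fold higher and none lower. Slc10a2 stood at 589.9 CPM in members and 234 in those barcodes, and Plb1 at 176 and 18.3. The secretory chaperone gene Agr2 stood at 284 and 2963 CPM, the keratin Krt18 at 119.6 and 558. Nr1h4 was lower in members, at 63.8 and 99.3 CPM. Cholesterol synthesis genes were alike, with 0 of 18 at least 2-fold higher and 1 lower.

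Against the 80 villus-tip-like KO enterocytes, members had fewer late genes and more antimicrobial ones. Of 2777 genes compared, 17.2% were at least 2-fold higher in members and 9.47% lower. All 8 villus-tip genes compared outside the rule were at least 2-fold lower, such as the ectoenzyme gene Enpp3 (2.66 CPM in members, 219 at the tip), and 6 of 8 immediate early genes were. At least 2-fold higher were 8 of 15 antimicrobial genes, with Lypd8, which hinders bacterial movement, at 3134 against 476 CPM, and 7 of 25 respiratory genes. Bile acid genes did not part the classes alike: Slc10a2 stood at 589.9 and 506 CPM, Slc51b at 1776 and 1658, but Slc51a at 1731 and 798. Of 32 distal genes 9 were at least 2-fold higher in members and 5 lower, with a median of 0.20. Among 28 proximal genes 6 were higher and 4 lower, with a median of 0.25, beside 0.30 over all genes.

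The KO members varied widely in antimicrobial genes. Reg3b ranged over single cells from 0 to 126697 CPM with a median of 10761, and was chosen to order the cells after its values were seen. From the lowest to the highest of 5 parts of 30 or 31 cells, Reg3g, a related lectin, went from 1347 to 32838 CPM, Lypd8 from 1571 to 6216, Upp1 from 771 to 2769 and Sis, sucrase-isomaltase, from 749 to 1799. In the other direction went Slc34a2, from 688 to 242 CPM, and Fabp2, from 53583 to 29397. Some turned on the way: Fabp2 first rose to 71857 in part 2, Lypd8 first fell to 1254 in part 2 and Sis to 644 in part 3. Fabp2 and Sis are genes of the rule. Fabp6 followed no direction along the order of Reg3b, with 61129, 68141, 54724, 81637 and 50635 CPM. The median mitochondrial share fell along this order from 14.2% to 5.65%, and the median depth was 5563 UMIs in the lowest part and 8743 in the highest. Their part in the result was not tested.

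**Figure D4:**
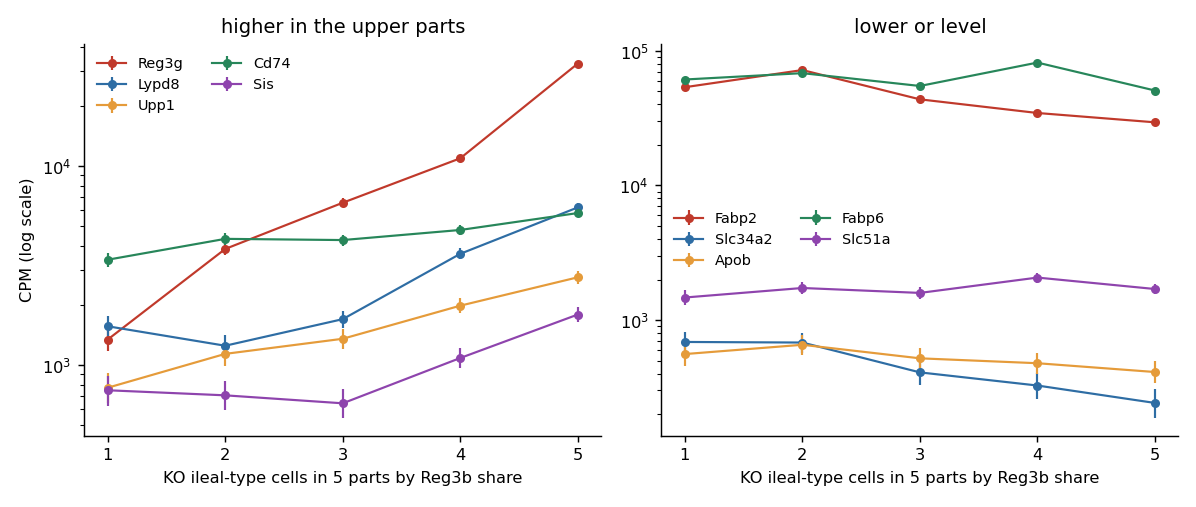
Level in CPM (vertical, log scale) of 10 genes in 5 parts of the 153 KO ileal-type enterocytes ordered from lowest to highest share of Reg3b (horizontal), with 95% Poisson intervals from counts. Reg3g reaches 32838 CPM and Lypd8 6216 CPM in the highest part, while Slc34a2 drops to 242 CPM and Fabp6 shows no order.

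The share of Fabp6, which the rule used to choose the cells, was set beside other genes within KO members as a description. Among 397 genes with at least 400 UMIs and a UMI in over 50% of the 153 KO members, Spearman's rho with the share of Fabp6 was 0.50 for Phgr1, 0.47 for Slc51a, 0.45 for Slc13a1, 0.44 for Abcg2, 0.42 for Slc10a2 and 0.41 for Tmigd1. In cells thinned to 1500 UMIs these were 0.47, 0.39, 0.34, 0.21, 0.29 and 0.38. These 6 are positive values picked from the 397 genes, and the spread over all 397 is not given here. All the cells come from 1 library, and a cell's values share its depth. The share of Fabp6 had a rho of 0.09 with depth, -0.13 with the mitochondrial share and -0.19 with the defensin share. The cut on Fabp6 limits its range.

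Within the class, KO and WT could be compared only roughly, since WT had 12 cells. Of 2325 genes compared, 12.7% were at least 2-fold higher in KO and 10.8% lower. Transporters of bile acids were higher in KO members: Slc10a2 by a log2 ratio of 1.01 (0.30 to 1.83), Slc51a by 1.04 (0.62 to 1.50) and Slc51b by 0.93 (0.53 to 1.36). With at least 6% absorptive UMIs, which left 3 WT cells, the ratio of Slc10a2 was -0.19. Fgf15 (-0.08, -1.50 to 1.83) and Nr1h4 (0.22, -1.39 to 2.53) could not be told from level at this depth. Over the list, 2 of 8 genes compared were at least 2-fold higher and 1 lower (Hnf4a, 118 against 293 CPM), with a median of 0.07 beside -0.02 over all genes with a UMI in both. The exporter subunits were also higher in KO among other mature enterocytes, by 0.90 for Slc51a and 1.12 for Slc51b. Over the list, however, that class had 2 of 13 genes at least 2-fold higher and 3 lower, with a median of -0.48. Barcodes high in Fabp6 but under the absorptive minimum had 0 of 13 higher and 6 lower, with a median of -0.86. Medians over all genes were -0.33 and -0.28 in these 2 classes, and their shares of all genes 2-fold apart were not counted.

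Lists differed in how many of their genes were 2-fold apart between KO and WT members, where 12.7% of all genes were higher in KO and 10.8% lower. Neither count of distal genes was above these shares. Of 32 distal genes 3 were at least 2-fold higher in KO (Slc51a, Slc10a2 and Fam151a) and 1 lower, Cubn, at 311 and 138 CPM in WT and KO (-1.17, -1.90 to -0.35). Of 28 proximal genes 3 were higher and 9 lower, among them lactase Lct (-1.88, -2.74 to -0.90). Of 19 drug-metabolising genes 4 were higher and none lower, led by Gstp1, a glutathione transferase, from 1 WT UMI (18.3 and 132 CPM). Wnt genes had 3 of 9 at least 2-fold lower in KO and none higher, with a median of -0.80, beside 6 of 16 lower and 1 higher in other mature enterocytes. Of 5 immediate early genes 3 were lower (Fos, Jun and Klf6), and in other mature enterocytes 9 of 12. Over all 7778 genes compared in other mature enterocytes, the median was -0.33 and 33.2% were above 0. The share of all genes at least 2-fold apart was not counted in that class.

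The 12 genes highest in KO against WT members were Zg16, Cgref1, Gchfr, S100a6, Saa1, Ppfia3, Cdkn2b, Slc31a1, H2-T23, Tmigd1, Atp2b1 and Arf6. Tmigd1 rested on 61 WT and 3076 KO UMIs (1.29, 0.92 to 1.68), whereas 9 of the 12 rested on 8 WT UMIs or fewer. In other mature enterocytes Tmigd1 was higher in KO by 3.32, Saa1 by 3.67, Ppfia3 by 1.47 and H2-T23 by 1.21. Zg16 (-0.22), Atp2b1 (-0.90) and Arf6 (-0.01) were below 0 there, and the rest ran from 0.01 to 0.66. In members Zg16 stood at 2.84, and at -0.17 without the 4 goblet-rich KO cells. S100a6, a calcium-binding protein, stood at 54.9 CPM (3 UMIs) in WT and 249 in KO members, and the interval of Cdkn2b, a cell cycle inhibitor, reached -0.02.

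Among the 12 lowest were AY036118, Apol10a, Apob, Ogdh, Plec, Cox7a1, Gda, Ceacam1, Pls1, Mttp and Dpp4, and these 11 were also lower in KO in other mature enterocytes. Most genes were lower there, with 33.2% of all 7778 genes compared above 0 and a median of -0.33. AY036118, a transcript of ribosomal RNA repeats, stood at 2487 CPM in WT and 77.1 in KO members (log2 ratio -5.01), beside -4.18 in the others. Apob, the core protein of chylomicrons, stood at 1372 and 514 CPM (-1.42, -1.77 to -1.05), beside -1.54. Apol10a, an apolipoprotein L, stood at 969 and 200.2 CPM (-2.28), beside -0.92. Long transcripts were lower in KO: by exon length, the longest 25% of genes had a median of -0.44 in members and -0.86 in the others, the shortest 0.26 and 0.19. The part of length in these ratios was not tested.

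**Figure D5:**
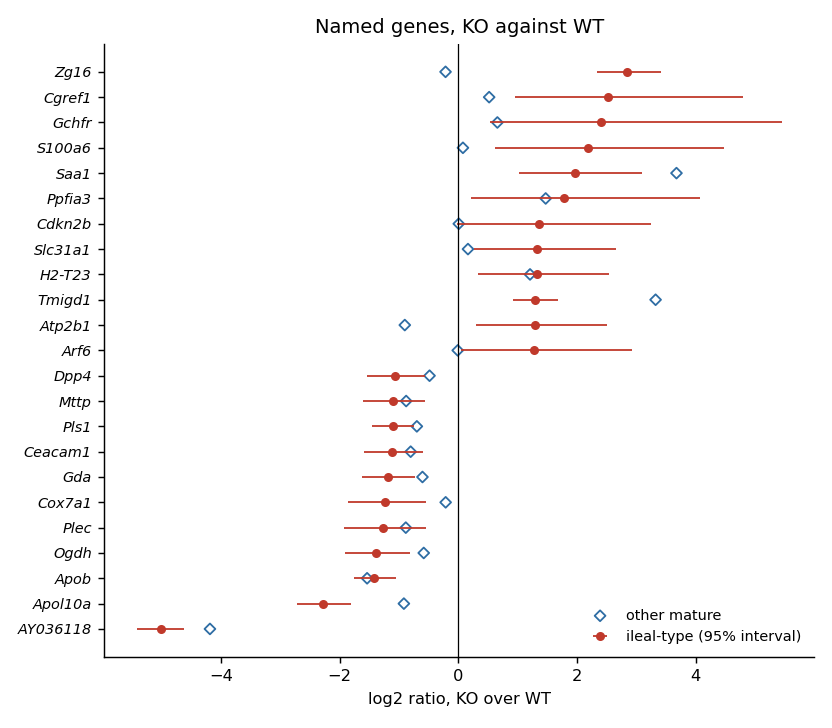
Log2 ratio of KO over WT (horizontal) for 23 named genes in ileal-type enterocytes, with 95% intervals from counts, and in other mature enterocytes (open diamonds). AY036118 is lowest in both classes, at -5.01 and -4.18, and the intervals of Cgref1 (0.96 to 4.80) and S100a6 (0.62 to 4.47) are wide.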

How the data were processed

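EpCAM+ crypt cells of WT and KO small intestine were measured with 10x 3′ chemistry. The authors aligned reads and counted UMIs with Cell Ranger, and deposited 1 matrix of UMI counts per genotype. The file headers name version 4.0.0 and the labels version 2.1.1 with build mm10. Cells of a genotype were pooled, so each matrix was 1 sample and no p-value was computed. From these counts, UMIs were summed over the members of a class (Python 3.11.15, numpy 2.4.6, scipy 1.17.1, pandas 2.3.3) and scaled to CPM. Intervals of CPM are exact Poisson, of shares exact Clopper-Pearson, and of log2 ratios exact conditional binomial, all at 95% and for counting error only. Genes needed 50 UMIs over both classes compared. A count of 0 was set at a floor of 3 UMIs over the class, and where this turned the direction the ratio was set to 0; genes at or under the floor in both classes were not compared. The script was tested on simulated data.

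The members and lists were chosen with earlier results of these data known. Named genes were the listed genes and, for each comparison, the 12 highest and 12 lowest ratios among genes outside the rule with at least 100 CPM in the higher group, 200 UMIs and 2 times the level of tuft-like barcodes. 1 gene that this rule names is not reported here. Those had at least 0.2% of UMIs from 10 tuft markers, a limit lowered from 0.5%, which left under 50 barcodes. Scrublet, run in scanpy 1.11.5, marked too few barcodes to be used as a caller, so an alternative dropped the top 8% of scores in each matrix, and no barcode was removed as a doublet in the results reported. Gene positions and exon lengths are from GENCODE M21, and promoters from RefSeq.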

Additional observations from a re-analysis of the deposited data

Results flagged for a closer look

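With 1 pooled matrix per genotype there was no group of 4 or more measured samples in which to look for a library far from the others. Of 5884 genes compared between ileal-type and other mature enterocytes in both matrices, 23 were at least 2-fold apart in opposite directions, and 3 of them were in the gene lists. S100g had a log2 ratio of -3.39 in WT and 1.01 in KO. Clca1 had -1.84 in WT and 1.48 in KO, and Zg16 -1.78 in WT and 1.28 in KO. Both are goblet genes, beside which stand the 4 goblet-rich KO members. These differences between WT and KO were not tested.

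Barcodes outside the kept ones also met the rest of the rule. In KO, 71 barcodes met every limit except the minimum of 1500 UMIs, against 1 in WT, and 8 KO barcodes met every limit except the mitochondrial one, against 0 in WT. They are given as counts and were not used above.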

How the results depend on the processing

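No paired analysis was possible because each genotype was deposited as 1 pooled matrix, and for the same reason leaving out a replicate was not run. In all, 15 alternatives were run, 12 of them planned and 3 chosen after seeing the data. Of 2180 values of single genes at 2-fold or more, 2060 were still at 2-fold or more and 2 had the other sign. These cover KO against WT members for bile acid and named genes, and members against other mature enterocytes in KO for listed and named genes. Ratios of members against other mature enterocytes in WT were left out. Genes that fell under the UMI minimum in an alternative were left out of it.

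With absorptive genes at least 6% of UMIs (3 WT and 83 KO members), the log2 ratio of the class's share of kept barcodes was 5.64 in place of 4.52, 194 and 142 genes were at least 2-fold higher and lower in KO members in place of 295 and 251, 67 genes in place of 121 were lower than in other mature enterocytes in both matrices, and Slc10a2 turned to -0.19 in KO against WT. With at least 1% (added later), the share's log2 ratio was 3.46, 458 genes were lower in KO members and 205 lower in both matrices. Thinned to 1500 UMIs, 85 genes were higher and 34 lower in KO members, and 46 higher and 70 lower in both matrices. With a minimum of 10 UMIs per gene, 1406 were lower in KO members and 216 higher in both matrices in place of 102, and with 200 UMIs 54 were higher and 26 lower in KO members and 36 higher in both. With each cell weighted equally, 184 were lower in both. Without goblet-rich barcodes (added later), Zg16 turned to -0.17. The cause was not tested. The median of the bile acid list in KO against WT ran from -0.36 to 1.01 over the alternatives. Depth limits WT most, since its 12 members hold 54680 UMIs.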
